A study of Mus musculus with 60 samples.

Results

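The cholesterol synthesis genes examined here are 7 enzymes of the route from acetyl-CoA to cholesterol: Hmgcs1, Idi1, Fdps, Fdft1, Sqle, Lss and Dhcr7. They were chosen by name, with earlier results of these data known, and no cutoff on a measured value was used. All 7 were found among the 39756 genes of the culture table and among the 41873 genes of the hippocampus table, and all 7 passed the filter on low values in both. The study asked how paxillin, a focal adhesion protein that is phosphorylated on a serine, S119, in brain, takes part in the maturation of young neurons. The cultures gave 48 libraries: 2 of mouse primary neurons labelled E15 and 46 of primary cortical neurons from E18 mouse embryos at DIV3, DIV5 or DIV10 (days in vitro). Each of the 46 carried a scrambled siRNA (SC) or a pool of paxillin siRNAs, with or without 20 ng/ml BDNF, a neurotrophin, and the siRNA and the BDNF were both given at 2 DIV. With SC siRNA there were 3, 4 and 3 libraries at the 3 ages, with paxillin siRNA 5, 6 and 4, with SC siRNA and BDNF 3, 4 and 3, and with paxillin siRNA and BDNF 4, 5 and 2. Culture numbers below are the numbers in the library titles, which do not say that equal numbers are the same culture. The hippocampus gave 12 libraries, 2 of each genotype at P10, P15 and P21. The mutant, labelled PXN KO,PXN-S119A KI, carried Nestin-CreERT2, a floxed paxillin allele and an S119A paxillin allele that cannot be phosphorylated at this serine, and received tamoxifen from P5. The methods state that controls and experimental littermates received the same tamoxifen. In all 12 libraries, age and time since tamoxifen therefore cannot be told apart. Nestin drives the Cre in neural progenitors and the cells they give rise to. The controls are labelled WT, whereas a figure legend of the study gives littermates with the same paxillin alleles and names no Cre for them. It is therefore not settled that the controls carried 2 normal alleles.

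Cells build cholesterol in the endoplasmic reticulum and the cytosol. When sterols in the membrane run low, the factor SREBP2 leaves the endoplasmic reticulum together with its escort protein SCAP. SREBP2 is then cut, and the freed part switches the genes of the route on together. When sterols are plentiful, the protein INSIG1 holds SREBP2 and SCAP back. The brain makes nearly all of its own cholesterol because lipoproteins of the blood do not cross into it. Growing neurons make cholesterol early, astrocytes later supply it on apolipoprotein E, and oligodendrocytes use large amounts for myelin.

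Promoter sequences are given here as background. RefSeq promoter windows on GRCm38.p6, from 250 bases before to 50 after the transcription start, were at hand for 4 of the 7 genes. No window was used for Fdps, Fdft1 and Sqle. Capitals mark 3 motifs searched on both strands: TCACNCCAC, a form of the sterol response element that SREBP binds, the CCAAT box, which NF-Y binds, and GGGCGG, the GC box of Sp1. NF-Y and Sp1 are known partners of SREBP. The windows below are all read on the plus strand, 5′ to 3′. No link between the motifs and the levels that follow was tested.
Hmgcs1, chr13:119690101-119690400: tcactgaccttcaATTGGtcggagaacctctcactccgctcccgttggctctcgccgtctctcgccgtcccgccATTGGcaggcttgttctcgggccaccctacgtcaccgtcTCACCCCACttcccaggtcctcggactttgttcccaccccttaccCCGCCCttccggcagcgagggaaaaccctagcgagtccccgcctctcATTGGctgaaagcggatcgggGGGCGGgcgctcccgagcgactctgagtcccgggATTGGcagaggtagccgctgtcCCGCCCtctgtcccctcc
Idi1, chr13:8885356-8885655: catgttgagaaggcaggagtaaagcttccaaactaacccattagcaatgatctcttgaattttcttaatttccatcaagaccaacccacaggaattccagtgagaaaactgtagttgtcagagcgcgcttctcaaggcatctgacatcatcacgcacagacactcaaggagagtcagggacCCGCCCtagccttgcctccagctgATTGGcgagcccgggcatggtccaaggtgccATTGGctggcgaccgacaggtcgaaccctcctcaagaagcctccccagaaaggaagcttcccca
Lss, chr10:76531355-76531654: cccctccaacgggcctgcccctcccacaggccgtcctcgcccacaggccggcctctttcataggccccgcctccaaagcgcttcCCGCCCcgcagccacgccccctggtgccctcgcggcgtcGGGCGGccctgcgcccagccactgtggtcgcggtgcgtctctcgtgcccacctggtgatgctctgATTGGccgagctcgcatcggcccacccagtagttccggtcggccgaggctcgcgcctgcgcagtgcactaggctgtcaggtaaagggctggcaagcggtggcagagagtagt
Dhcr7, chr7:143829964-143830263: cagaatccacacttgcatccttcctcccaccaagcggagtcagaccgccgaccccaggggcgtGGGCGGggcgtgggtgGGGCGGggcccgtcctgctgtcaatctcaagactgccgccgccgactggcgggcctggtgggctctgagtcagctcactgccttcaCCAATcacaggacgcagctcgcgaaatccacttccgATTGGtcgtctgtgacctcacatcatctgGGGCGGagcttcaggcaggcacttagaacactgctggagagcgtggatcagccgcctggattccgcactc
Hmgcs1 alone held the sterol response element, once, at position -137 from the start; 1.24% of all 32851 windows of this length held it. Hmgcs1 also held 4 CCAAT boxes and 3 GC boxes. A CCAAT box was found in at least 1 window of 4 of 4 member genes and of 10 of 11 genes of the other pathway enzymes, against 11096 of all 27025 genes. Counted by window, the box was in 66.7% of 6 member windows and in 37.4% of all windows. For the GC box the counts were 4 of 4 and 10 of 11 genes, against 10324 of all 27025 genes, and 83.3% of the member windows against 35.7% of all windows. For Dhcr7, the window shown is 1 of 3 and the only one of them with a CCAAT box. These are matches of letters and not measured sites.

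Levels in the cultures are given in TPM, the share of each gene among all transcripts of a library, which the authors computed and which is scaled by transcript length, so they can be compared between genes. Hmgcs1 makes HMG-CoA, the first committed unit of the route, and was the most abundant of the 7. It read 661 and 738 TPM at E15, and at DIV3 with SC siRNA 845, 959 and 1294 TPM. At DIV5 with SC siRNA the 4 libraries read 735, 525, 1475 and 527 TPM, and at DIV10 the 3 libraries read 223, 634 and 312 TPM. The E15 and DIV3 values did not overlap, and the highest DIV5 and DIV10 values came from culture 3. Its group median was highest at DIV5 with paxillin siRNA and lowest at DIV10 with paxillin siRNA and BDNF, a ratio of 11.3.

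Idi1 and Fdps make the isoprenoid chain, Idi1 by isomerising its C5 units and Fdps by joining them to farnesyl diphosphate. Idi1 read 91.8 and 90.0 TPM at E15 and 93.7, 99.3 and 165 TPM at DIV3 with SC siRNA. At DIV5 it read 109, 94.3, 145 and 92.2 TPM and at DIV10 31.1, 56.2 and 34.9 TPM, so that no DIV10 library reached the DIV5 range. Fdps read 247 and 199 TPM at E15, 280, 328 and 322 TPM at DIV3, 133, 111, 293 and 101 TPM at DIV5 and 45.0, 71.4 and 60.9 TPM at DIV10. The DIV10 libraries lay below all of the DIV5 libraries for Fdps as well. The ratio of the highest to the lowest group median was 9.60 for Idi1 and 11.9 for Fdps, from DIV3 to DIV10 groups.

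Fdft1, Sqle and Lss carry the chain into the sterol ring: Fdft1 is squalene synthase, Sqle squalene epoxidase and Lss lanosterol synthase. Fdft1 read 91.8 and 77.3 TPM at E15, 93.3, 102 and 98.3 TPM at DIV3, 50.8, 47.1, 90.1 and 42.5 TPM at DIV5 and 22.5, 52.4 and 30.2 TPM at DIV10. Sqle read 213 and 148 TPM at E15, 317, 330 and 343 TPM at DIV3, 247, 195, 257 and 164 TPM at DIV5 and 119.5, 76.8 and 122 TPM at DIV10. Sqle had no overlap between any 2 neighbouring ages with SC siRNA. Lss read 61.5 and 50.7 TPM at E15, 72.8, 90.6 and 105 TPM at DIV3, 49.8, 58.9, 97.8 and 44.9 TPM at DIV5 and 29.2, 48.6 and 32.6 TPM at DIV10. The ratio of the highest to the lowest group median was 10.4 for Fdft1, 13.7 for Sqle and 5.42 for Lss.

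Dhcr7, the reductase that completes cholesterol from 7-dehydrocholesterol, read 39.2 and 26.7 TPM at E15 and 75.5, 72.7 and 94.0 TPM at DIV3 with SC siRNA. It read 88.7, 78.7, 91.8 and 44.4 TPM at DIV5 and 54.2, 49.6 and 46.4 TPM at DIV10. Its group medians spanned a ratio of 6.20, from DIV3 with SC siRNA and BDNF down to DIV10 with paxillin siRNA. When the 13 groups were ordered by median, at most 2 of the 12 neighbouring pairs were free of overlap for any member. The 7 levels were correlated over the 48 libraries, with Pearson's r between 0.75 and 0.96 for the 21 pairs of members; these libraries share ages, treatments and cultures, and the r is a description.

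**Figure D1:**
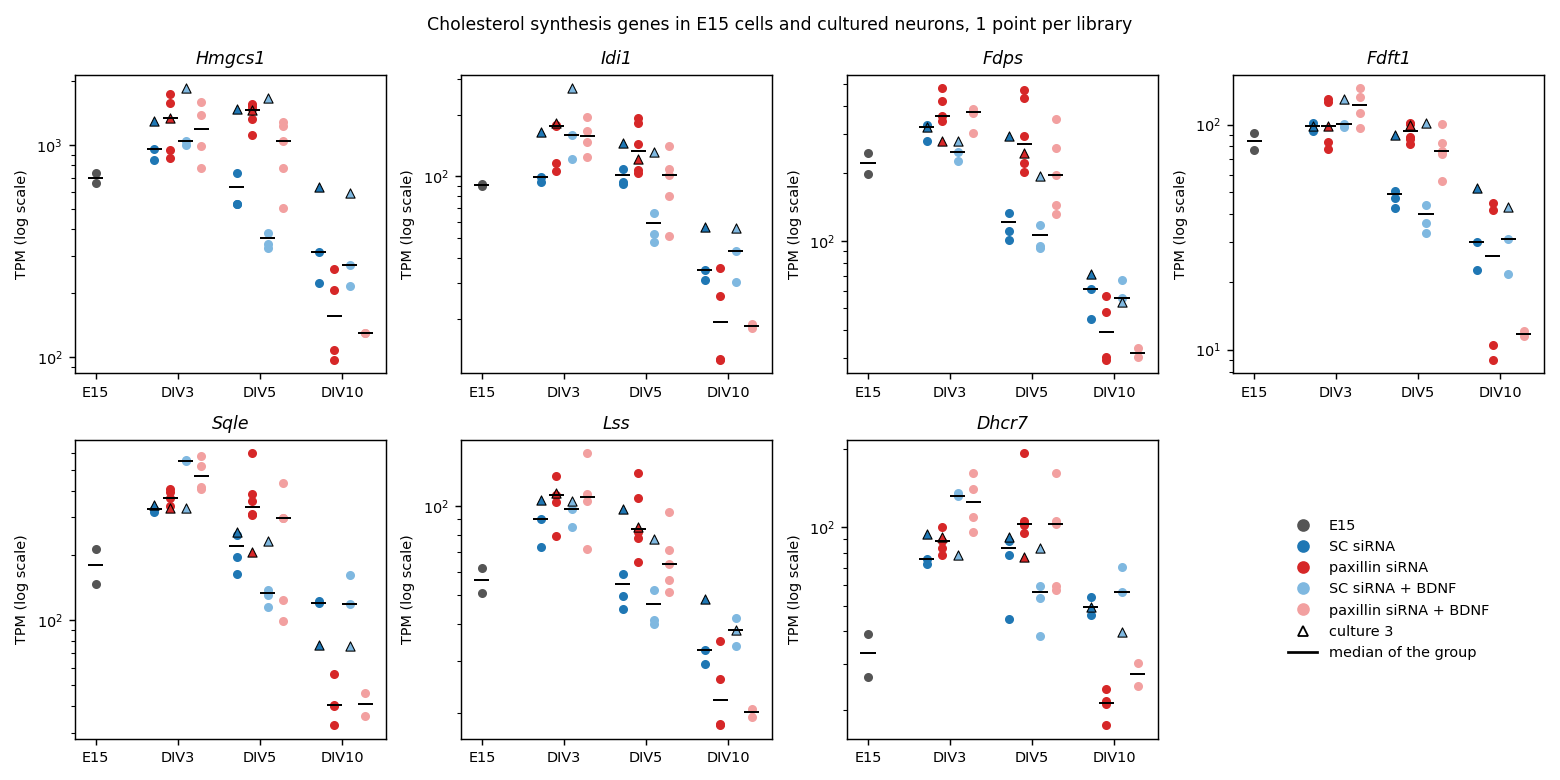
TPM (log axis) of the 7 cholesterol synthesis genes at E15, DIV3, DIV5 and DIV10, 1 point per library, coloured by siRNA and BDNF, with a bar at the median of each group and a triangle for culture 3. The DIV10 medians lie below the DIV3 medians, and at DIV5 the SC siRNA triangles stand above the other SC siRNA libraries, as for Hmgcs1 with 1475 TPM.

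Among the other genes, the ones whose pattern was most like the members' were found by Pearson's r of log2(TPM + 1) with the mean standardised level of the 7 members over the 48 libraries. They were Mvd (r = 0.964), which decarboxylates mevalonate diphosphate, Acat2 (0.961), which makes acetoacetyl-CoA, Stard4 (0.949), a sterol carrier, Cyp51 (0.949), which demethylates lanosterol, and Nsdhl (0.946), a C4 sterol decarboxylase. The r was taken over the same libraries, ages and treatments for every gene.

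The siRNA was read first from Pxn itself. At DIV5 Pxn read 13.1, 19.9, 12.4 and 16.4 TPM with SC siRNA and at most 9.83 TPM in the 6 libraries with paxillin siRNA, a log2 difference of -0.67 ± 0.18 (SE; adjusted p = 0.0186). At DIV3 the difference was -0.16 (adjusted p = 1). At DIV10 Pxn read 8.99, 19.9 and 9.93 TPM with SC siRNA and 18.8, 13.4, 13.2 and 11.5 TPM in the libraries labelled paxillin siRNA. This difference, 0.19 (adjusted p = 0.609), does not have the direction of a knockdown, so results at DIV10 are those of the labels. With BDNF the difference of Pxn was -0.42 at DIV5 (adjusted p = 0.207).

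From E15 to DIV3 with SC siRNA, Dhcr7 rose by a log2 difference of 1.28 ± 0.35 (SE; adjusted p = 0.0185; n = 3 and 2). All differences in the cultures are of log2(TPM + 1), which understates changes at low levels, and a gene was called at an adjusted p under 0.05 in a limma fit of all 13 groups. Over all genes 8.11% were called in this comparison. The other 6 members had differences between 0.21 and 0.89 and were not called. None of the 7 had overlapping values, with only 3 and 2 libraries, and the share of all genes without overlap was not counted. Of the 13 other pathway enzymes, Tm7sf2, a sterol C14 reductase, rose (1.19, adjusted p = 0.039). Srebf2, which encodes SREBP2, rose by 0.84 (adjusted p = 0.0485) and Scap by 0.80 (adjusted p = 0.0409), 2 of the 7 SREBP regulators. Markers of other cells also differed between these libraries: 7 vascular and fibroblast markers summed to 399 to 512 TPM at E15 and 28.1 to 199 TPM at DIV3, and 5 oligodendrocyte precursor markers to 297 to 515 TPM and 892 to 1748 TPM. Their part in the result was not tested. The E15 libraries have no paired culture, and leaving out E15 library 2 or the SC library of culture 3 left no member called.

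From DIV3 to DIV5 the members' levels fell most clearly with SC siRNA and BDNF. There all 7 fell, by log2 differences of -0.89 to -1.64 (adjusted p = 0.000875 to 0.0419), where 17.6% of all genes were called. Hmgcs1 went from 1045, 999 and 1855 TPM to 328, 386, 1668 and 342 TPM. The single high DIV5 value was again culture 3, so the 2 ages overlapped for Hmgcs1. There was no overlap for 3 members, and the share of all genes without overlap was not counted. Leaving out 1 library gave 2 to 7 members called: 2 without the DIV3 library of culture 3, 2 without the DIV5 library of culture 4, 3 without the DIV5 library of culture 1 and 4 without the DIV3 library of culture 1. Of the other pathway enzymes 6 of 13 fell, among them Cyp51 (-1.73).

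Markers of other cells moved with this comparison. The 9 astrocyte markers summed to 887, 1005 and 326 TPM at DIV3 with SC siRNA and BDNF and to 4659, 4682, 1514 and 6869 TPM at DIV5, and 6 of the 9 were called higher. Culture 3, in which Hmgcs1 stayed high, was the lowest of the DIV5 libraries in astrocyte markers. The 5 oligodendrocyte precursor markers went from a median sum of 1255 to 4649 TPM with 1 called higher, and the 10 neuron markers from 2463 to 1584 TPM with 1 called lower. With SC siRNA alone the median sum of the astrocyte markers was 850 TPM at DIV3 and 5885 TPM at DIV5. The part of these cells in the members' fall was not tested.

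With SC siRNA alone only Fdps was called from DIV3 to DIV5 (-1.09, adjusted p = 0.0215), against 9.47% of all genes, and the other 6 differences ran from -0.82 to -0.09. That call was lost without any 1 of 6 of the 7 libraries, and without the DIV5 library of culture 3 there were 2 calls. With paxillin siRNA no member was called, against 5.57% of all genes, and the differences lay between -0.32 and 0.29. None had an unadjusted p under 0.05 in limma, against 2904 of 14250 genes. With paxillin siRNA and BDNF, Sqle (-1.13), Fdps (-0.82) and Lss (-0.67) fell, against 13% of all genes, and 6 of the 13 other pathway enzymes fell. This count of 3 dropped to 0 without the library of culture 10 at DIV3 or of culture 2 or 4 at DIV5, and to 1 without that of culture 2 or 11 at DIV3 or of culture 1 at DIV5.

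From DIV5 to DIV10 all 7 members fell in the libraries labelled paxillin siRNA, by log2 differences between -1.86 for Lss and -3.18 for Hmgcs1 (adjusted p = 2.64e-10 to 1.41e-06), where 47.2% of all genes were called. Hmgcs1 went from 1109 to 1560 TPM in 6 libraries at DIV5 to 206, 260, 108 and 96.7 TPM at DIV10. Fdft1 went from 82.05 to 102 TPM to 44.7, 41.8, 10.5 and 9.01 TPM. The 2 ages did not overlap for any member, and the share of all genes without overlap was not counted. Without any 1 library, all 7 stayed called. All 7 also had lower values at DIV10 in each of the 2 series of library numbers that hold both ages. Of the other pathway enzymes 11 of 13 fell, among them Cyp51 (-3.12).

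With SC siRNA 4 members fell from DIV5 to DIV10, Idi1 (-1.44 ± 0.34, adjusted p = 0.00244), Fdps (-1.30 ± 0.31, adjusted p = 0.00256), Sqle (-1.02 ± 0.34, adjusted p = 0.0242) and Lss (-0.72 ± 0.26, adjusted p = 0.0378). Over all genes 24.9% were called. Hmgcs1 had a difference of -1.07 (adjusted p = 0.0724), Fdft1 of -0.72 and Dhcr7 of -0.54. Of the other pathway enzymes 3 of 13 fell, among them Acat2 (-1.20) and Cyp51 (-1.08). After the libraries were rescaled by the median ratio, which moved the median difference of all genes from -0.16 to 0.02, 2 members were called, and 2 without the DIV5 library of culture 3. With SC siRNA and BDNF, Fdps alone fell (-1.02, adjusted p = 0.0154), where 25.0% of all genes were called, and the call was lost without culture 3 or without the DIV10 library of culture 1. With paxillin siRNA and BDNF all 7 fell (-1.66 to -2.81, adjusted p = 8.57e-07 to 0.000241), where 13.3% were called, and 9 of the 13 other enzymes fell with them; both DIV10 libraries come from cultures 10 and 11.

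The other lipid genes did not all take this course. In the libraries labelled paxillin siRNA, 6 of 9 genes of cholesterol export and turnover rose from DIV5 to DIV10 and 1 fell. Apoe, the main cholesterol carrier of the brain, rose by 3.02, from a mean of 2089 to 16948 TPM, and Abca1, which loads cholesterol on it, by 2.15. All 9 genes of fatty acid synthesis fell, among them Acly (-1.86) and Scd1 (-1.70). Of 6 uptake genes 4 fell, and Srebf2 fell by 1.81. In the same libraries 7 of 9 myelin markers rose and 1 fell, and 3 of 9 astrocyte markers rose. All 5 microglia markers tested rose, with a median sum of 43.04 TPM at DIV5 and 389 TPM at DIV10 over 6 markers. Of 10 neuron markers 5 fell and 1 rose, with a median sum of 2597 TPM and 1625 TPM, and of 8 dividing progenitor markers 5 fell and 1 rose. The share of these cells in the members' change was not tested, and in whole cultures fewer cells of a type and less RNA per cell cannot be told apart.

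**Figure D2:**
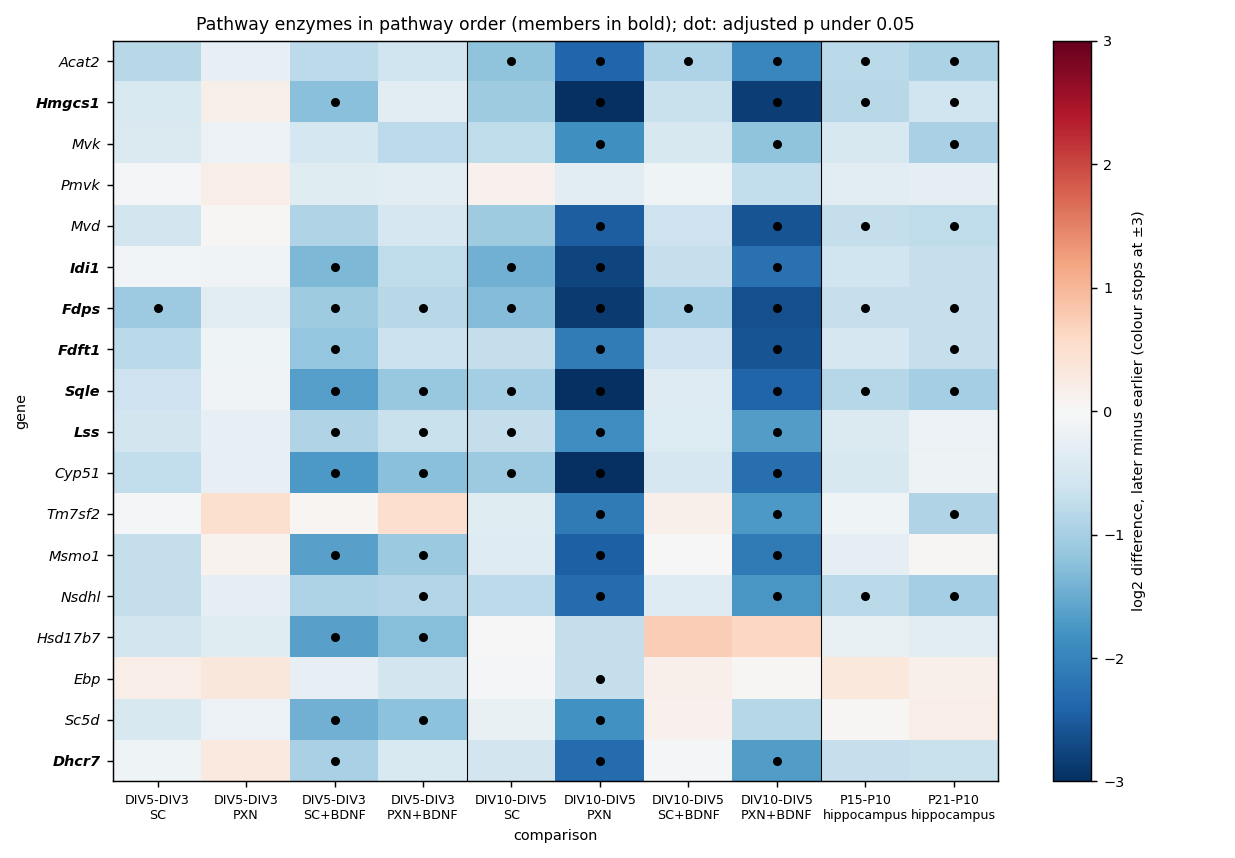
Log2 difference (colour, later minus earlier, stopping at ±3) of 18 pathway enzymes in pathway order for 8 comparisons of ages in culture and 2 in hippocampus, with the 7 members in bold and a dot where the adjusted p was under 0.05. The column of DIV10 against DIV5 with paxillin siRNA has a dot for all 7 members and for 9 of the 11 other enzymes drawn.

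Paxillin siRNA was then compared with SC siRNA at each age, with the same libraries as in the comparisons of ages. At DIV3 no member was called and none had an unadjusted p under 0.05 in limma. The differences lay between 0.05 and 0.36 without BDNF and between -0.16 and 0.52 with BDNF. Over all genes the calls were 0.0% without BDNF, with 21 genes at an unadjusted p under 0.05, and 0.0% with BDNF, with 229 such genes. Of 14250 genes, both are fewer than that threshold passes by chance, so the lack of calls says little about the members.

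At DIV5 Fdps was higher with paxillin siRNA. Its level was 133, 111, 293 and 101 TPM with SC siRNA and 293, 222, 247, 203, 472 and 435 TPM with paxillin siRNA. The 2 groups overlapped through culture 3 alone. The log2 difference was 1.03 ± 0.27 (SE; adjusted p = 0.0179), where 6.18% of all genes were called. Only 114 of the 880 genes called were higher, which is 13%, and 37.5% were higher after rescaling by the median ratio. The other 6 members had differences between 0.35 for Idi1 and 0.92 for Hmgcs1 and were not called. An unadjusted p under 0.05 in limma was found for 6 of the 7 members and for 3206 of 14250 genes. Hmgcs1 read 735, 525, 1475 and 527 TPM with SC siRNA and between 1109 and 1560 TPM, median 1468 TPM, with paxillin siRNA.

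Several single libraries changed how many members were called at DIV5, the SC library of culture 3 among them. Culture 3 had the highest value of the SC group in 7 of 7 members. Without that library 4 members were called, and without culture 3 altogether 6 were called, Idi1 being the exception, with log2 differences of 1.42 for Fdps (adjusted p = 0.000417), 1.24 for Hmgcs1 (0.00327), 0.95 for Fdft1 (0.0315) and 0.80 for Lss (0.0122); this removal was chosen after its values were seen. In the other direction, no member was called without the paxillin siRNA library of culture 10, without the SC library of culture 1, 2 or 4, or without cultures 10 and 11, which hold no SC library. With the culture number as a replicate block 2 members were called, Fdps (0.89, adjusted p = 0.01) and Hmgcs1 (0.88, adjusted p = 0.0387). Within the only series of library numbers that holds both groups, the differences of the 7 members ran from 0.22 to 0.99 over 2 and 4 libraries.

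The DIV5 groups also differed in markers of other cells. The summed level of 9 astrocyte markers was 4448, 7323, 1407 and 8688 TPM with SC siRNA, 1407 TPM being culture 3, and between 1149 and 2060 TPM with paxillin siRNA. Of the 9 markers 2 were called lower, Sox9 and Aldh1l1, and none was at 0 in a group. The summed level of the 10 neuron markers was 2165, 1479, 2643 and 1391 TPM with SC siRNA and 1970 to 3091 TPM with paxillin siRNA. The 8 dividing progenitor markers summed to 1342 to 2406 TPM with SC siRNA and 878 to 1162 TPM with paxillin siRNA, with no overlap and 1 called lower. The 5 oligodendrocyte precursor markers had a median sum of 3861 TPM and 1705 TPM, with none called. The SC library in which the members were highest was the one in which the astrocyte markers were lowest. The part of these cells in the members' difference was not tested. Of the other pathway enzymes 2 of 13 rose, Msmo1, a C4 methylsterol oxidase (1.06, from 78.1 to 169 TPM), and Acat2 (0.80, from 98.1 to 163 TPM); Abca1 was lower (-1.01).

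**Figure D3:**
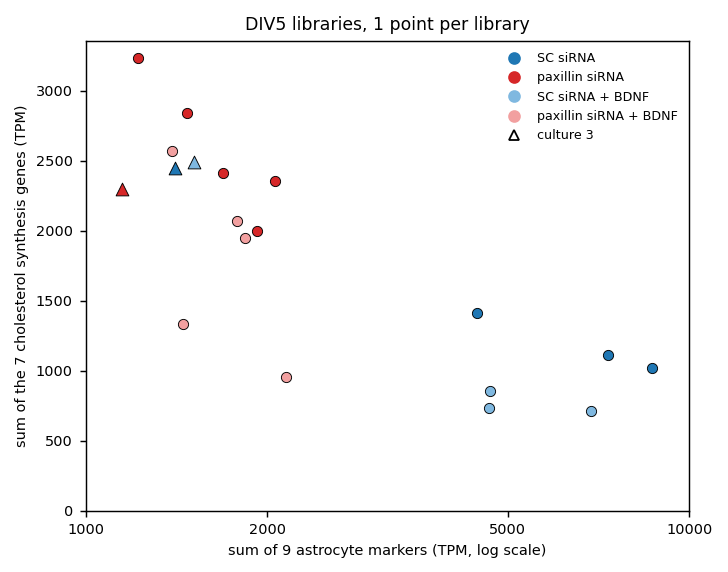
Sum of the 7 cholesterol synthesis genes (TPM) against the sum of 9 astrocyte markers (TPM, log axis) in the DIV5 libraries, 1 point per library, coloured by siRNA and BDNF, with triangles for culture 3. The SC siRNA triangle lies at 1407 TPM of astrocyte markers and 2451 TPM of members, among the paxillin siRNA libraries.

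With BDNF at DIV5 all 7 differences between paxillin and SC siRNA were above 0, from 0.37 to 0.82. None was called, where 0.596% of all genes were called. An unadjusted p under 0.05 in limma was found for 3 members and for 2661 of 14250 genes. Culture 3 stood apart here too: Hmgcs1 read 328, 386, 1668 and 342 TPM with SC siRNA and BDNF, the third being culture 3, and 1232, 504, 777, 1289 and 1041 TPM with paxillin siRNA and BDNF. Within the 2 series of library numbers that hold both groups, 7 of 7 members were above 0 in one and 5 of 7 in the other, which includes culture 3. Without culture 3, which was left out after its values were seen, 4 members were called, Hmgcs1 (1.38, adjusted p = 0.0021), Fdps (0.99, 0.0104), Fdft1 (1.01, 0.0287) and Dhcr7 (0.85, 0.0243). The summed astrocyte markers were again 4659, 4682, 1514 and 6869 TPM with SC siRNA and BDNF and 1393 to 2146 TPM with paxillin siRNA and BDNF.

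At DIV10 the differences were below 0 for all 7 members over all libraries. Within the only series of library numbers that holds both groups, 2 libraries against 1, 4 of the 7 members were above 0, and the differences ran from -1.35 for Dhcr7 to 0.91 for Fdft1. Sqle read 119.5, 76.8 and 122 TPM with SC siRNA and 40.5, 56.0, 39.8 and 32.5 TPM in the libraries labelled paxillin siRNA, with no overlap and a log2 difference of -1.31 ± 0.34 (SE; adjusted p = 0.0395). Dhcr7 read 54.2, 49.6 and 46.4 TPM and 17.5, 24.2, 21.6 and 21.1 TPM, again with no overlap and a difference of -1.21 ± 0.29 (adjusted p = 0.0379). Over all genes 2.58% were called; 15.5% of those calls were higher, and 42.9% after rescaling by the median ratio. Hmgcs1 had a difference of -1.19 (adjusted p = 0.0956) and Idi1 of -0.96 (adjusted p = 0.0874), and Lss, Fdft1 and Fdps lay between -0.54 and -0.64.

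The paxillin siRNA libraries at DIV10 fell into pairs. For Fdft1 cultures 1 and 2 read 44.7 and 41.8 TPM, within the SC range of 22.5 to 52.4 TPM, and cultures 10 and 11 read 10.5 and 9.01 TPM. Hmgcs1, Idi1, Fdps, Sqle and Lss had their 2 lowest values in cultures 10 and 11 as well. Without these 2 cultures, Dhcr7 (-1.24, adjusted p = 0.0035) and Sqle (-1.11, adjusted p = 0.0185) were called, and the difference of Fdft1 was 0.38 and not called. Both calls were lost without any 1 of 4 libraries, the SC libraries of cultures 1 and 6 and the paxillin siRNA libraries of cultures 1 and 2. The summed astrocyte markers split the same libraries, with 1689 and 1121 TPM in cultures 1 and 2 and 7895 and 9100 TPM in cultures 10 and 11, while the SC libraries read 8659, 1687 and 4496 TPM. Their part in the result was not tested.

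Of the other pathway enzymes 4 of 13 fell at DIV10 in the libraries labelled paxillin siRNA, among them Cyp51 (-1.32) and Tm7sf2 (-1.24). Srebf2 fell by 1.19 (adjusted p = 0.013), from 88.9 to 39.4 TPM, and was the only 1 of the 7 SREBP regulators called. Of 6 uptake genes 2 fell, among them Lrp8 (-0.95), an apolipoprotein E receptor. With BDNF the 7 differences lay between -0.86 and -1.47 and none was called, where 0.0211% of all genes were called. All 7 had an unadjusted p under 0.05 in limma, as did 1023 of 14250 genes. None of the 7 overlapped, and the share of all genes without overlap was not counted. That comparison rests on 2 libraries, cultures 10 and 11, against 3 of other cultures, so culture and siRNA cannot be told apart in it.

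**Figure D4:**
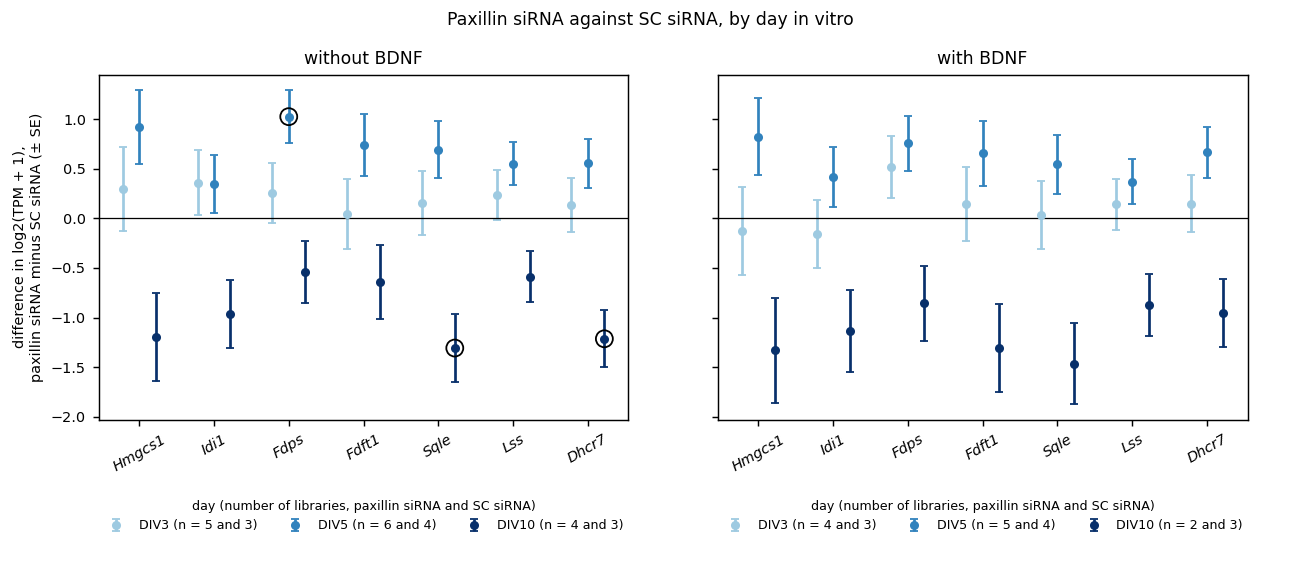
Difference in log2(TPM + 1) between paxillin siRNA and SC siRNA (± SE) for the 7 cholesterol synthesis genes, without BDNF on the left and with BDNF on the right, by day in vitro, with a ring where the adjusted p was under 0.05. All points of DIV5 lie above 0 and all points of DIV10 below 0, with rings for Fdps at DIV5 and for Sqle and Dhcr7 at DIV10.

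The difference between the 2 siRNA effects was tested directly. The effect of the paxillin siRNA label at DIV10 was below that at DIV5 for 5 members: Hmgcs1 (-2.11 ± 0.58, SE; adjusted p = 0.0299), Sqle (-2.0 ± 0.44; 0.0119), Dhcr7 (-1.77 ± 0.38; 0.0116), Fdps (-1.57 ± 0.41; 0.0267) and Lss (-1.14 ± 0.34; 0.0411). Fdft1 (-1.38, adjusted p = 0.073) and Idi1 (-1.31, adjusted p = 0.0676) were not called. Over all genes 5.76% were called, 513 of 821 of them with the DIV10 effect above that at DIV5. Of the 13 other pathway enzymes 7 were called and all had the DIV10 effect lower, with a median of -1.52 over the 13. The median of the 7 members was -1.57 and that of all genes 0.03. Without cultures 10 and 11 only Dhcr7 (-1.60) and Sqle (-1.56) were called, and without 1 library 2 to 7 members were; the count was 2 without the SC library of culture 2 or 4 at DIV5 or of culture 6 at DIV10, and 3 without that of culture 3 at DIV10. For DIV5 against DIV3 the effects of the members differed by -0.01 to 0.77 and none was called, where 0.0% of all genes were called and 1054 had an unadjusted p under 0.05 in limma.

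BDNF was compared with no BDNF within each age and siRNA, and no member was called in any of the 6 comparisons. With SC siRNA the differences were -0.30 to 0.59 at DIV3 (1.21% of all genes called), -0.66 to -0.19 at DIV5 (0.0491%) and -0.11 to 0.13 at DIV10 (0.0%, with 352 genes at an unadjusted p under 0.05). Of 14250 genes, the 352 are fewer than that threshold passes by chance. With paxillin siRNA they were -0.13 to 0.49 at DIV3 (2.14%), -0.66 to -0.25 at DIV5 (0.014%) and -0.77 to 0.37 at DIV10 (0.014%). An unadjusted p under 0.05 in limma was reached by 1 member with SC siRNA and by 4 with paxillin siRNA, both at DIV5. Over all 14250 genes it was reached there by 1268 and 981. At DIV5 all 7 members were below 0 in both of these comparisons, and with paxillin siRNA also within each of 3 series of library numbers, while with SC siRNA 5 of 7 were below 0 within the 1 series that holds both groups. At DIV10 with SC siRNA, 7 and 3 of the 7 members were above 0 within the 2 series. At DIV10 with paxillin siRNA the direction turned within the 1 series that holds both groups, the libraries numbered 10 and 11. There all 7 members were higher with BDNF, by 0.08 to 0.51 over 2 and 2 libraries, although 6 of 7 were lower over all libraries. Deviations of equal numbers correlated only at 0.19 and 0.23, and equal numbers may not be the same culture. The effect of paxillin siRNA did not pass the test for a difference between BDNF and no BDNF for any member at DIV3, DIV5 or DIV10. Over all genes the calls of these 3 tests were 0.0%, 0.0% and 0.0%, with 162, 116 and 885 genes at an unadjusted p under 0.05 in limma. The counts at DIV3 and DIV5 are fewer than that threshold passes by chance, so the lack of calls there says little.

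In the hippocampus, levels are CPM, the counts of long Nanopore reads summed over the transcripts of a gene and scaled to the depth of the library. They are not divided by transcript length and are compared here between ages and genotypes, not between genes. The P15 and P21 libraries numbered 2 stood apart from those numbered 1, with correlations of 0.76 to 0.86 between their deviations across groups, and a term for them was tried beside each result. Tests are edgeR's quasi-likelihood test over 13561 genes with 4 libraries per age.

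Of the 7 members, Sqle had the most negative fold changes in hippocampus. It read 507, 541, 557 and 600 CPM at P10, 341, 247, 330 and 260 CPM at P15 and 274, 251, 281 and 282 CPM at P21. The later ages did not overlap with P10. The log2 fold change was -0.85 ± 0.11 at P15 (SE; adjusted p = 0.00294) and -1.01 ± 0.12 at P21 (adjusted p = 0.000382), both against P10. Over all genes 5.89% were called at P15 and 15.7% at P21.

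Hmgcs1 read 646, 693, 708 and 686 CPM at P10, 428, 280, 491 and 290 CPM at P15 and 447, 432, 403 and 504 CPM at P21, in each case with the 2 control libraries first. It fell by 0.83 on the log2 scale at P15 (adjusted p = 0.0174) and by 0.60 at P21 (adjusted p = 0.0329). The lowest P15 values, 280 and 290 CPM, came from the libraries numbered 2. With a term for those libraries the 2 changes were -0.75 and -0.49 and both were called. Its reads were split over 3 transcripts, 38.9%, 38.0% and 23.1% of them.

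Fdps read 568, 569, 587 and 666 CPM at P10, 377, 388, 365 and 306 CPM at P15 and 392, 369, 315 and 406 CPM at P21. It fell by 0.69 at P15 (adjusted p = 0.0126) and by 0.68 at P21 (adjusted p = 0.00514), with no overlap against P10. Fdft1 read 194, 232, 187 and 271 CPM at P10, 157, 177, 150 and 116 CPM at P15 and 128, 135, 138 and 140 CPM at P21. It fell by 0.70 at P21 (adjusted p = 0.0159), and the P15 change of -0.51 was not called (adjusted p = 0.0935) but was with a term for the libraries numbered 2 (0.0279).

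Lss, Idi1 and Dhcr7 had few reads, 30 to 106, 8 to 70 and 12 to 45 per library. Lss read 16.7 to 19.4 CPM at P10 and 8.46 to 21.2 CPM at P21. Their changes from P10 were -0.43, -0.59 and -0.69 at P15 and -0.18, -0.68 and -0.67 at P21, and none was called. With a term for the libraries numbered 2, Dhcr7 was called at P21 (-0.82, adjusted p = 0.0479).

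**Figure D5:**
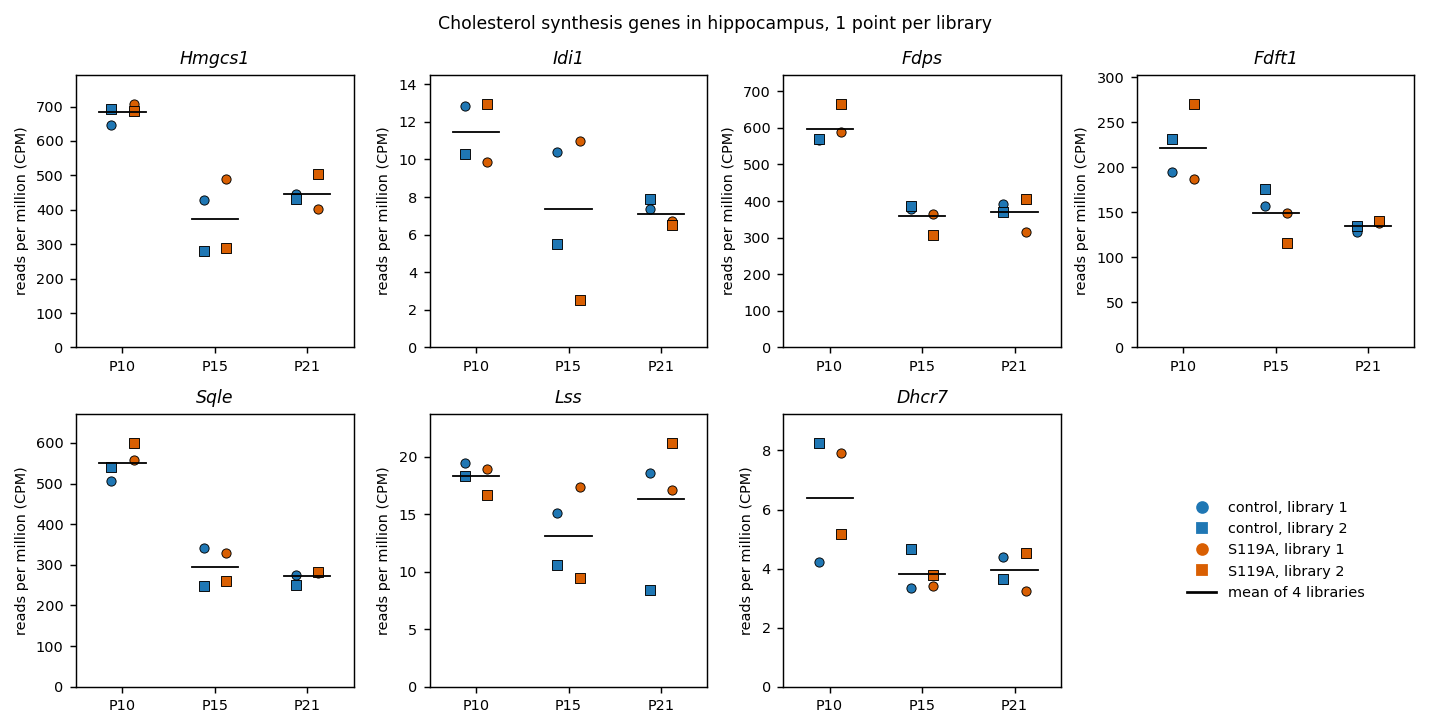
Scaled read counts (CPM, axis from 0) of the 7 cholesterol synthesis genes in hippocampus at P10, P15 and P21, 1 point per library, control and S119A side by side, circles for libraries 1 and squares for libraries 2, with a bar at the mean of each age. Sqle, Hmgcs1 and Fdps drop from P10 to P15, as from 551 to 295 CPM in the mean of Sqle, and stay near that level at P21.

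Between P15 and P21 no member was called, with changes of -0.18 to 0.25 and none at an unadjusted p under 0.05 in edgeR or called in DESeq2, where 0.162% of all genes were called. In edgeR 1498 of 13561 genes had an unadjusted p under 0.05. The summed level of the 7 genes was 1951 to 2257 CPM at P10, 988 to 1367 CPM at P15 and 1164 to 1364 CPM at P21. Over the same ages the summed level of 10 myelin markers was 312 to 441, 775 to 2736 and 4988 to 8407 CPM, and all 10 rose at P15 and at P21, while Opalin was at 0 at P10. Of 8 dividing progenitor markers 4 fell at each age, and 9 astrocyte markers summed to 2435 to 2679, 3426 to 4499 and 3386 to 4345 CPM. The neuron markers summed to 5654 to 8548 CPM over all libraries. The part of cell composition in the members' fall was not tested, and age and time since tamoxifen cannot be told apart.

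Of the 13 other pathway enzymes 3 fell at P15, Nsdhl (-0.81), Acat2 (-0.81, from 518 to 286 CPM) and Mvd (-0.71), and 6 at P21, among them Nsdhl (-1.03) and Mvk, mevalonate kinase (-0.98). The median change over the 13 was -0.34 and -0.33, the median over the 7 members -0.69 and -0.68, and the median over all genes 0.00 at both ages. Stard4 fell by 1.01 at P21, and Abcg1, which exports cholesterol, rose by 1.38 and Npc1, which releases it from lysosomes, by 1.52. The other genes most like the members over the 12 libraries were Slc6a15 (r = 0.968), St6gal2 (0.968), Idh1 (0.966), Sae1 (0.962) and Nae1 (0.960), while Acat2 ranked 21 and Mvd 26.

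No member was called between the genotypes. The log2 fold changes of S119A over control, with age in the model, lay between -0.19 for Idi1 and 0.12 for Lss, with standard errors of 0.09 for Sqle to 0.28 for Idi1 and an adjusted p of 1.00 for all 7. No member had an unadjusted p under 0.05 in edgeR and none was called in DESeq2. Over all genes 0.0% were called, with 126 of 13561 at an unadjusted p under 0.05. That is fewer than the threshold passes by chance, so the lack of calls says little about the members. The age change was not called as different between the genotypes for any member, with an adjusted p of 1 for all 7 members. In that test 0.0% of all genes were called and 108 had an unadjusted p under 0.05, again fewer than chance gives. Within the control libraries alone or within the S119A libraries alone, 2 against 2, no member was called between ages, although the change of Sqle at P21 was -0.92 and -1.09.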

How the data were processed

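The authors aligned the culture reads (SureSelect XT HS2 mRNA kit, paired-end NovaSeq) with STAR 2.7.10 to GRCm38.p6 and deposited TPM per gene from RSEM 1.3.3. These sum to 1000000 per library, so the depth behind a TPM is not in the file. The authors aligned the Nanopore reads of hippocampus to mm10 with minimap2 and deposited counts per RefSeq transcript from IsoQuant. The counts were summed per gene by RefSeq name (119242 of 122459 transcripts, 98.19% of the reads) and came to 3162777 to 5687908 reads per library, which limits precision for genes with few reads. The labels say mouse cultures and the methods of the study rat E18 cultures; mouse genes were counted.

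TPM were tested as log2(TPM + 1) in the 14250 genes that averaged 1 TPM or more, by limma 3.58.1 (R 4.3.3) with 1 mean for each of 13 groups and a variance trend. Counts were tested by edgeR 4.0.16 (quasi-likelihood, TMM, filterByExpr, terms for age and genotype). P-values were adjusted by Benjamini-Hochberg over all genes tested and called under 0.05. They measure the spread between libraries, since the labels do not say that the hippocampus libraries came from separate mice. Culture numbers come from the titles, which do not say that they name cultures. Libraries of the same number deviated together, with every r over 0.1 in at least 3 pairs, in 10 of 19 comparisons (0.24 to 0.49 for paxillin siRNA at DIV5). Series of library numbers are a grouping made here from the library names. No replicate libraries were identical. Overlap between groups was looked at in the listed genes only, so no share over all genes stands beside it.

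The members and gene lists were chosen with earlier results of these data known. Genes named were the members, Pxn, any pathway enzyme, the genes most like the members and, of other lists, at most the 2 largest rises and falls among called genes; Opalin was named after its values were seen. Some list genes that are in the counts are not reported here by name. Alternatives were DESeq2 1.42.0, other filters, pseudocounts and scalings, a culture block, a series term and leaving out libraries. Those without culture 3 and with S119A libraries only were added after the data were seen. The tests were tried on simulated data.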

Additional observations from a re-analysis of the deposited data

Results flagged for a closer look

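In 49 checks of a member in a group of 4 to 6 culture libraries, 5 had a single library far from the others. For 1 check alone chance gives about 1 in 20. The members share libraries and their levels are correlated, so the 49 checks are not independent and the 5 cannot be set against that rate. Hmgcs1 and Fdft1 stood high in culture 3 at DIV5 with SC siRNA and BDNF, with 1668 TPM and 101 TPM. Fdps stood high in culture 3 at DIV5 with SC siRNA, with 293 TPM. Dhcr7 stood high in culture 10 at DIV5 with paxillin siRNA, with 192 TPM. Fdps stood low in culture 1 at DIV3 with paxillin siRNA and BDNF, with 303 TPM.

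The paxillin siRNA effect at DIV10 differed from that at DIV5 by a tested interaction for 5 members: Hmgcs1 (-2.11, adjusted p = 0.0299), Sqle (-2.0, 0.0119), Dhcr7 (-1.77, 0.0116), Fdps (-1.57, 0.0267) and Lss (-1.14, 0.0411), in limma. At DIV10 Pxn itself was not lower in the libraries labelled paxillin siRNA.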

How the results depend on the processing

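Over all alternatives no called member changed direction, and 485 of 552 counts of members called stayed within 1.5 times the reported count. Counts that were 0 and stayed 0 are among the 485, and several reported counts above 0 moved, as given below. With no filter on low values 1 member was called for paxillin siRNA at DIV10 (2 reported), 1 for DIV5 against DIV3 with paxillin siRNA and BDNF (3 reported) and 3 for the difference of the siRNA effects at DIV10 and DIV5 (5 reported). With median ratio size factors the counts were 1 for paxillin siRNA at DIV10, 2 for DIV10 against DIV5 with SC siRNA (4 reported) and 0 with SC siRNA and BDNF (1 reported). With only the groups compared in the fit, which estimates the spread from fewer libraries, the counts were 0 for paxillin siRNA at DIV5 and at DIV10, for DIV5 against DIV3 and DIV10 against DIV5 with SC siRNA, for DIV10 against DIV5 with SC siRNA and BDNF and for the difference of the siRNA effects, 2 for DIV3 against E15, 2 for DIV5 against DIV3 with SC siRNA and BDNF and 1 with paxillin siRNA and BDNF.

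With the culture number as a replicate block 2 members were called for paxillin siRNA at DIV5 (1 reported), 1 at DIV5 with BDNF and 2 at DIV10 with BDNF (none reported for either), and no other count moved past 1.5 times; the E15 comparison could not be blocked. At DIV5 with BDNF the correlations of libraries with equal numbers were 0.08, 0.37 and 0.35 for cultures 1, 2 and 4. It is not settled that equal numbers there are the same culture. At DIV10 with BDNF the groups share no number, so the 2 calls there are not a paired result. A series term gave 3 at DIV5, 1 at DIV10 with BDNF and 2 for DIV3 against E15. Without cultures 10 and 11 the counts were 0 for paxillin siRNA at DIV5 and 2 for the difference of the effects, and comparisons with paxillin siRNA and BDNF at DIV10 had no libraries left. Without culture 3 they were 6 at DIV5, 4 at DIV5 with BDNF, 1 at DIV10 with BDNF and 0 for DIV10 against DIV5 with SC siRNA and BDNF. In hippocampus, control libraries alone or S119A libraries alone gave 0 at P15 and 0 at P21 against P10 (3 and 4 reported).

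Leaving out 1 library gave 0 to 4 members for paxillin siRNA at DIV5 and at DIV5 with BDNF, 0 to 2 at DIV10, 2 to 7 for the difference of the effects, 0 to 1 for DIV3 against E15, 0 to 2, 2 to 7 and 0 to 4 for DIV5 against DIV3 with SC siRNA, SC siRNA and BDNF, and paxillin siRNA and BDNF, 2 to 4 and 0 to 1 for DIV10 against DIV5 with SC siRNA without and with BDNF, 7 to 7 with paxillin siRNA without and with BDNF, 2 to 3 at P15 and 3 to 4 at P21 in hippocampus. The causes were not tested.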
